A study of Mus musculus with 6 samples.

Results

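The subject is the normal caput epididymis of the mouse, described across genes from the 3 wild-type libraries of a series of 6. The members were chosen by their labels alone: RNA of the caput epididymis of 8-week-old mice with the genotype Wild-type, replicates 1 to 3. The other 3 libraries of the series come from Adgrg2-KO mice of the same age with the genotype Adgrg2-/Y and were not used, so no effect of genotype was tested. The labels give neither the strain nor the number of animals behind a library, and the spread between libraries may therefore be biological or technical. All 24346 genes of the table are accounted for below, first as ranks of abundance, then by family, by predicted secretion and by role.

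The caput is the head of the epididymis, the coiled duct that sperm enter after the testis and the efferent ducts. Its epithelium, mostly principal cells, secretes proteins into the lumen that bind to sperm, alter their surface or protect them while they gain motility and the ability to fertilise. The most proximal stretch, the initial segment, depends on factors that arrive in testicular fluid as well as on androgen. Beta-defensins are small cationic antimicrobial peptides, lipocalins carry small hydrophobic molecules, and cystatins inhibit cysteine proteases. Many genes of these families sit in tandem clusters and have members with epididymal expression.

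Levels are the deposited FPKM (fragments per kilobase of transcript, scaled to the size of the library). The length they are divided by was not the full transcript for every gene: set against the normalized counts, FPKM implied a divisor shorter than the coding sequence for 10 of the 25 most abundant genes, against 8.27% of the 12213 detected genes with a translated sequence. Defb18 had an implied divisor of 65 bases for a coding sequence of 255 bases, and Defb25 93.2 for 213, whereas Gpx5 had 1390 for 663. FPKM therefore place some short genes high relative to their fragments, and normalized counts divided by coding length are given beside the main shares. That scale in turn places genes high whose transcript is much longer than its coding sequence. Rpl41, with 75 coding bases and an implied divisor of 241, ranked 7 on it against 24 by FPKM. The deposited normalized counts, which are not divided by length, show how many fragments each gene took. They summed to between 1.90e+07 and 1.93e+07 per library, and the size of their smallest step corresponds to between 1.68e+07 and 1.97e+07 fragments. A gene was called detected at a mean of at least 1 FPKM, which 12767 genes reached (52.4% of the table), 12407 of them in every library. The median detected gene had 10.8 FPKM, with quartiles of 4.35 and 26 FPKM, and 5823 genes were listed at 0 in all 3 libraries. Mitochondrially encoded genes were not analysed here.

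A small number of genes held much of the transcriptome. The 10 most abundant genes held 20.7 ± 0.26% of the summed FPKM (SD, n = 3), the 25 most abundant 30.7 ± 0.26% and the 100 most abundant 46.8 ± 0.38%. It took 130 genes to reach 50% of the summed FPKM. At the top of the scale, 816 genes had a mean of at least 100 FPKM, 85 at least 1000 FPKM and 5 at least 10000 FPKM. The leading genes coded for short proteins: the median of the 100 most abundant was 165 amino acids, over the 97 with a translated sequence, against 448 for the detected genes. Counted as fragments rather than per length, the 10 genes with the most normalized counts held 12.2 ± 0.37% and the first 100 held 28.0 ± 0.37%, and 676 genes were needed for 50%. As normalized counts per coding base, the first 10 and 100 genes held 18.03% and 38.6%.

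**Figure D1:**
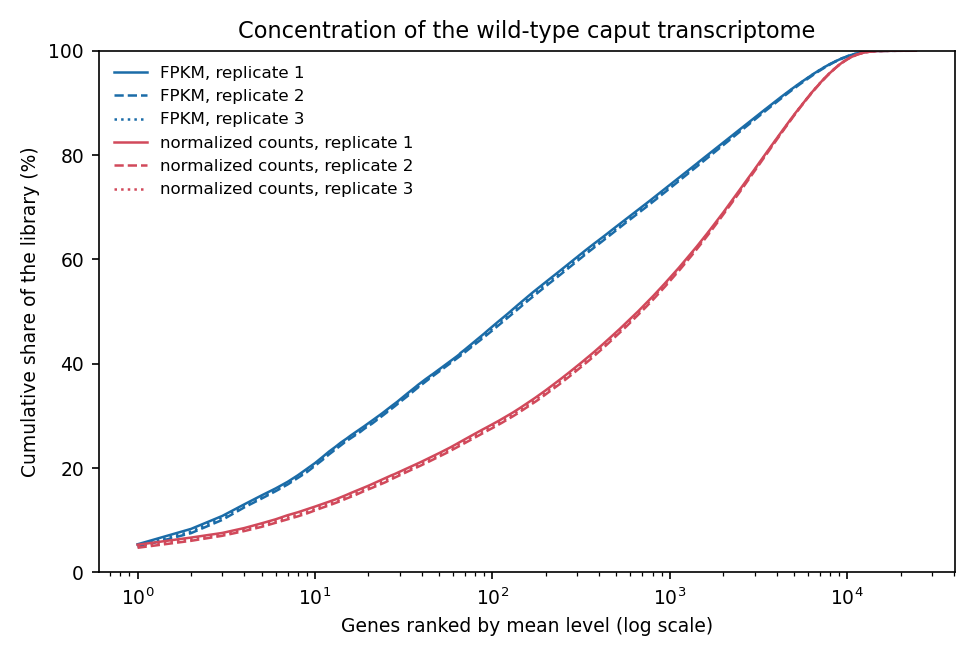
Cumulative share of each wild-type library (vertical axis, percent) held by genes ranked by mean level (horizontal axis, log scale), for FPKM (blue) and normalized counts (red), with a line for each of the 3 libraries. The 100 most abundant genes held 46.8% of FPKM but 28.0% of normalized counts, and the 3 libraries nearly coincide on each scale.

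The 5 caput markers took the first 5 ranks by FPKM and were the genes at or above 10000 FPKM in every library. They were set with earlier results of these data known, so their ranks are no independent check of the tissue. Gpx5, a secreted glutathione peroxidase of the epididymis that lacks the selenocysteine of some relatives, had 38528, 33682 and 36279 FPKM in replicates 1 to 3, or 5.14 ± 0.26% of all FPKM (SD, n = 3). Spag11b, which codes for beta-defensin-like peptides, had 21064, 18384 and 18803 FPKM. Lcn8, an epididymal lipocalin of the initial segment, had 17732, 17549 and 19098 FPKM. The libraries of Gpx5 lay apart from those of Spag11b, whereas the ranges of Spag11b and Lcn8 overlapped, so their order was not resolved. Defb25 followed with 16366 ± 339 FPKM and Defb20 with 11696 ± 422 FPKM, with ranges that met neither each other nor the neighbouring gene. By normalized counts per coding base, Gpx5 and Spag11b were again first, Defb20 and Lcn8 ranked 3 and 4, and Defb25 ranked 13. Of the 25 genes highest by FPKM, 19 were among the 25 highest on that scale, and Defb18 ranked 43.

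Below the markers came 9230104L09Rik, a cystatin named Cstdc2 in RefSeq, at 9576 ± 204 FPKM, and Defb48 at 8970 ± 178 FPKM. Lcn2, the iron-siderophore-binding lipocalin, had 8855 ± 131 FPKM. The next genes of the same families were Defb18 with 8286 ± 583 FPKM, Lcn9 with 8227 ± 229 FPKM, Cst11 with 7939 ± 353 FPKM and Defb47 with 7382 ± 359 FPKM. The first gene outside the secreted families was Crip1, which codes for a small LIM-domain protein, at 6306 FPKM, and Eef1a1, the translation elongation factor, followed at 5945 FPKM. Mfge8, a secreted glycoprotein that coats sperm and binds membranes, had 5171 ± 165 FPKM. Clu, the secreted chaperone clusterin, had 5030 FPKM in replicate 1 and 4250 and 4180 FPKM in replicates 2 and 3. The remainder of the first 25 ran from Adam7 at 4278 FPKM, a membrane protein that is transferred to sperm, to Wfdc10 at 3239 FPKM, a protease inhibitor of the WAP family. Of these 25 genes, 24 were among the first 25 of every library, but in 14 of the 24 neighbouring pairs the library ranges overlapped.

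**Figure D2:**
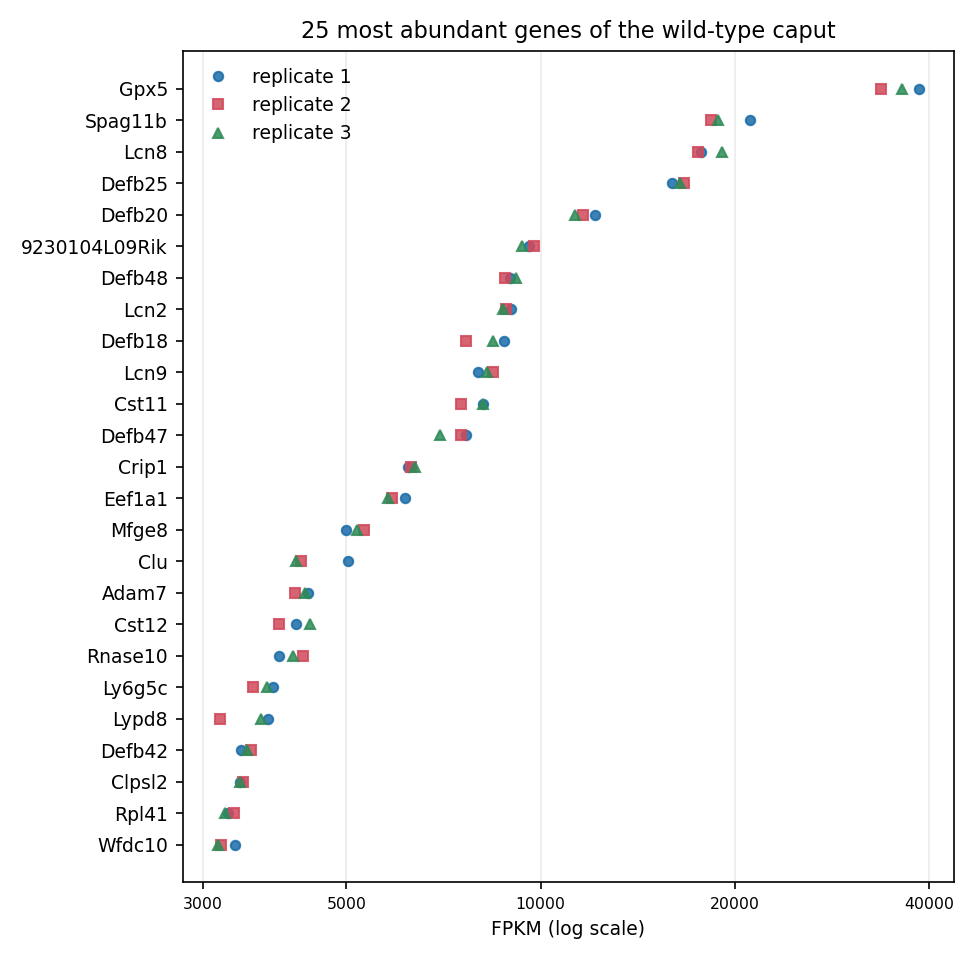
FPKM (horizontal axis, log scale) of the 25 genes with the highest mean in wild-type caput, with a point for each of the 3 libraries. Gpx5 stands clear of all others at 33682 to 38528 FPKM, while from the seventh gene on most neighbours overlap.

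Long transcripts ranked higher when fragments were counted. Gpx5 remained first with a mean of 961382 normalized counts, and Adam7 came next, followed by Mfge8 and Eef1a1. Spag11b, Lcn8, Clu, Lcn2, Defb20 and Rnase10 completed the first 10. Adgrg2, the adhesion receptor that the other mice of the series lack, ranked 18 by normalized counts but 105 by FPKM, with 808, 850 and 841 FPKM in the 3 libraries. It therefore belonged to the 816 genes above 100 FPKM in the normal tissue.

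Together, 8 families of mostly secreted proteins held 29.7 ± 0.45% of the summed FPKM (SD, n = 3), 24.01 ± 0.53% of normalized counts per coding base and 12.7 ± 0.40% of normalized counts. Their 250 genes in the table are not a uniformly active set: 134 of them, 53.6%, were detected, a share near the 52.4% of all genes. The detected members were high, with a median of 67.0 FPKM against 10.8 FPKM for all detected genes, and 25 of them exceeded 1000 FPKM. Of the first 25 genes by FPKM, 18 were members.

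The order of the families depended on the scale. Beta-defensins held 11.2 ± 0.21% of FPKM, 7.04 ± 0.18% of normalized counts per coding base and 2.14 ± 0.075% of normalized counts. Of 44 genes, 32 were detected (72.7%, against 52.4% of all genes) and 5 were listed at 0 in every library. Above 1000 FPKM were 7, with Spag11b, Defb25, Defb20 and Defb48 first. Lipocalins held 5.78 ± 0.066% of FPKM, 3.77% per coding base and 2.23% of normalized counts, with 11 of 17 detected (64.7%). After Lcn8, Lcn2 and Lcn9, the next lipocalins were Lcn10 with 2093 FPKM on average and Lcn5, a retinoid-binding protein, with 1247 FPKM. Glutathione peroxidases held 5.22 ± 0.26% of FPKM, 7.12 ± 0.37% per coding base and 5.08 ± 0.29% of normalized counts, the largest share on the count scale, of which nearly everything was Gpx5. The next members were Gpx4, which reduces lipid peroxides in membranes, at 237 FPKM, and Gpx1 and Gpx3 at 112 FPKM each.

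Cystatins held 3.57 ± 0.030% of FPKM and 1.05% of normalized counts, with 9 of 15 genes detected (60%, against 52.4% of all genes). After 9230104L09Rik and Cst11 came Cst12 with 4167 ± 229 FPKM, Cst8, a cystatin of the initial segment also called CRES, with 2330 FPKM, and Cst3, the widely expressed cystatin C, with 1077 FPKM. The Ly6 and Pate family, small cysteine-rich proteins with a three-finger fold, held 2.06 ± 0.045% of FPKM and 1.03% of normalized counts. Of its 45 genes 20 were detected (44.4%), with Ly6g5c at 3731 FPKM, Lypd8 at 3554 FPKM and Ly6g5b at 2877 FPKM leading. Serine protease inhibitors held 1.11 ± 0.067% of FPKM and 0.512% of normalized counts, with 41 of 99 genes detected (41.4%). They were led by Wfdc10 at 3239 FPKM, Spink8 at 949 FPKM, Spint2 at 533 FPKM and Spink11 at 480 FPKM. The RNase A family held 0.692 ± 0.026%, most of it Rnase10 with 3930, 4276 and 4127 FPKM. Rnase10, a member without known ribonuclease activity that is made in the proximal epididymis, stood far above Rnase12, the next at 405 FPKM. The CRISP family, cysteine-rich secretory proteins that bind sperm, held only 0.0805%, with Crisp1 at 365 FPKM and Crisp4 at 182 FPKM.

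Some epididymal families outside these 8 are membrane-bound. Adam7 had 4357, 4156 and 4320 FPKM and Adam28 1457, 1560 and 1559 FPKM, while the next of the 34 ADAM genes, Adam10, had 73.1 FPKM. The Teddm genes, which code for epididymal transmembrane proteins, included Teddm1a with 2956 FPKM, Teddm2 with 1722 FPKM and Teddm1b with 442 FPKM, and Teddm3 was listed at 0.

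**Figure D3:**
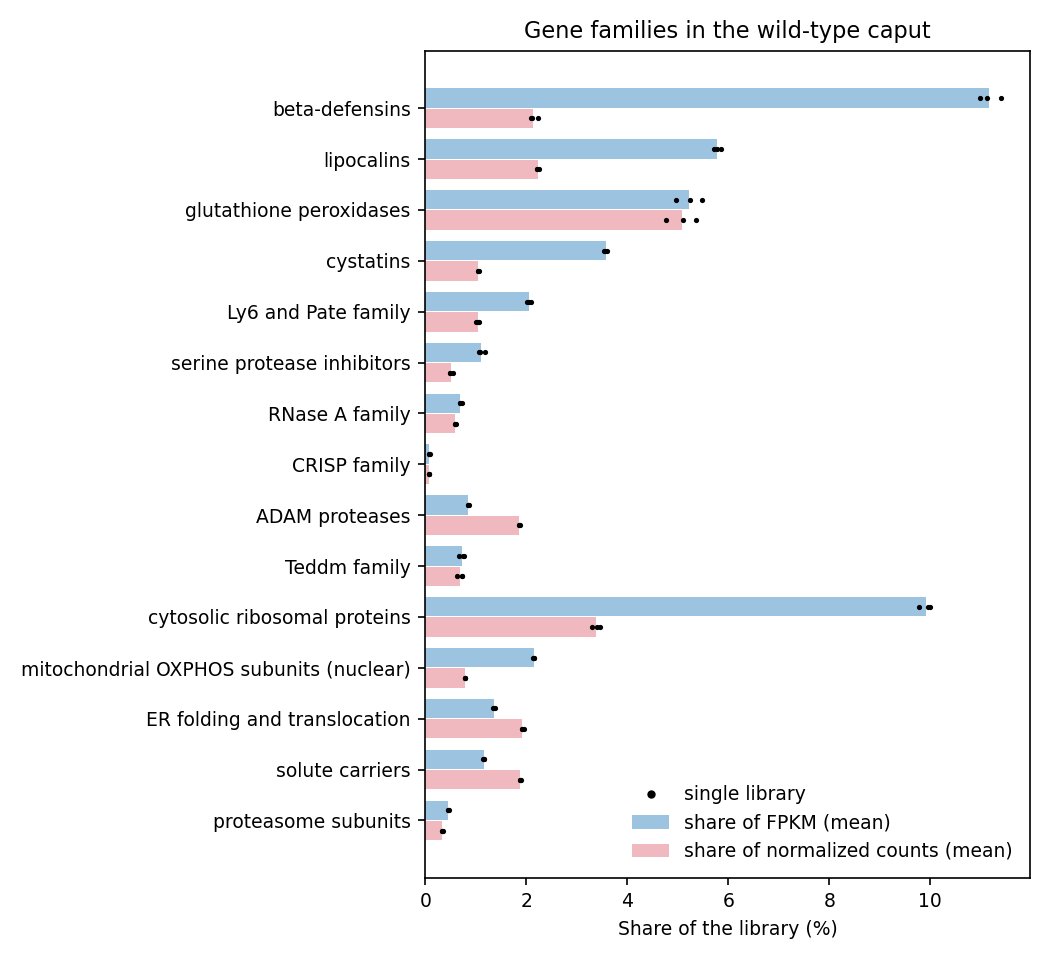
Share of each wild-type library (horizontal axis, percent) held by gene families, as FPKM (blue bars, means) and normalized counts (red bars, means), with a black dot per library. Beta-defensins at 11.2% and cytosolic ribosomal proteins at 9.91% of FPKM are the longest bars, and both are shorter on the count scale, while the bars of the glutathione peroxidases are nearly equal.

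The abundant members were concentrated in a few genomic clusters (GRCm38 coordinates). Chromosome 2 carried 8.08% of the detected genes but 18.7% of the summed FPKM, of which 14.1% of all FPKM came from the 8 families. A lipocalin cluster at chr2:25466709-26671282 held 4.52 ± 0.077% of FPKM, from Lcn8 at 18126 FPKM down to Lcn4, listed at 0. A cystatin cluster at chr2:148750361-149410278 has 10 members and held 3.57%, from 9230104L09Rik to Cst10, listed at 0. A defensin cluster at chr2:152459055-152623053 has 11 members and held 4.13%, from Defb25 at 16366 FPKM to Defb26 at 0.21 FPKM. On chromosome 14, all 5 defensins at chr14:62977524-63048606 were detected, from Defb48 at 8970 FPKM to Defb43 at 5.54 FPKM, and together held 2.84%. The defensin cluster at chr8:18974914-19497775 held the same share, 2.84%, but 9 of its 16 members were detected, from Spag11b to Defb7, listed at 0. Each of these clusters apart from that on chromosome 14 held genes at or near 0 beside genes above 1000 FPKM.

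Promoter windows of RefSeq (GRCm38.p6, 250 bases before to 50 after the start) were available for 21 of the 25 family genes above 1000 FPKM. Spag11b, Defb25, Defb18 and Cst11 had no entry. The windows were searched on both strands for TGTTCT, a half-site bound by steroid hormone receptors, whose reverse complement is AGAACA. It occurred in 11 of 21 windows (52.4%), against 18.97% of all 32851 windows. Among windows with a G+C content between the quartiles of these 21 (49.3% to 52.7%), 24.3% held it. Of 116 family genes under 1 FPKM, 85 had a window, and 32 of these (37.6%) held it. Windows were missing for genes of both family sets, so the 52.4% and the 37.6% are both incomplete. A match is a description of these letters only. Below, 3 upstream stretches with matches near the start are set beside that of Gpx5, the most abundant gene, whose window has none. Each is the 250 bases before the start, 5′ to 3′ on the gene's strand, with each TGTTCT or AGAACA that lies wholly within it in capitals.
Rnase10, chr14:51007501-51007750, + strand: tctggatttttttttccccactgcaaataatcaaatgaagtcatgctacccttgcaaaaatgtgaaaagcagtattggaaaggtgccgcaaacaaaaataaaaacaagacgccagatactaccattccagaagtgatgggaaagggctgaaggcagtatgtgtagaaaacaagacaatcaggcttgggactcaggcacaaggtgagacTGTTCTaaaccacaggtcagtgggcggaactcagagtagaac
Lcn9, chr2:25822903-25823152, + strand: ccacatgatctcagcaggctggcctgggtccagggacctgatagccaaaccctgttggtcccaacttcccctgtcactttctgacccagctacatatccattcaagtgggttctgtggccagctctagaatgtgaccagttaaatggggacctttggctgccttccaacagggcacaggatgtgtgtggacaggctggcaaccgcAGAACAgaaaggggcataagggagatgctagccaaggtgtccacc
Defb48, chr14:62984511-62984760, - strand: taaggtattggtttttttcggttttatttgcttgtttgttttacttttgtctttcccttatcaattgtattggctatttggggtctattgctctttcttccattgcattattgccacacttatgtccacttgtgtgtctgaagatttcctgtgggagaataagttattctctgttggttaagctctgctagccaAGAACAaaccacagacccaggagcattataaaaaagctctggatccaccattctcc
Gpx5, chr13:21292687-21292936, - strand: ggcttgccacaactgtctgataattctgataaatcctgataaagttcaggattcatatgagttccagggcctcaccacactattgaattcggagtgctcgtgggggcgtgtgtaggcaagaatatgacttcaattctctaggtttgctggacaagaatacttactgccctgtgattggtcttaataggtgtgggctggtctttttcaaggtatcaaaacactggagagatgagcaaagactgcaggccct
In Rnase10, TGTTCT begins 42 bases before the start on the coding strand, and an AGAACA that runs across the start is not shown in full. In Lcn9 the AGAACA begins 45 bases and in Defb48 56 bases before the start. The motif TATAAA, the TATA box, was sought on the coding strand between 45 and 20 bases before the start. Among the 100 most abundant genes, 4% of those with a window held it. Only 75 of these 100 genes had a window, so that check is void.

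No annotation of secretion was in the files, so a pattern in the protein sequence stood in: a hydrophobic stretch near the N-terminus, as a signal peptide has, and no later stretch long enough to span a membrane. Of the 20374 genes with a translated coding sequence, 2723 had the pattern (13.4%), and they held 38.02 ± 0.46% of the summed FPKM (SD, n = 3) and 23.2 ± 0.46% of normalized counts. Per coding base the share was 32.5%. They made up 20 of the first 25 genes and 36 of the first 100. The pattern was present in all 44 beta-defensins and 16 of 17 lipocalins, and absent from all proteasome subunits, nuclear receptors and class A receptors. It held for 57 of 98 serine protease inhibitors, 28 of 44 Ly6 and Pate proteins and 5 of 8 glutathione peroxidases, fewer than all members. Not every member of these families need be secreted, so these counts do not measure how often the pattern missed a secreted protein. The pattern is not exact: it also caught 10 of 95 nuclear-encoded subunits of oxidative phosphorylation, and Rplp1 and Rpl13a among 80 cytosolic ribosomal proteins. Genes with the pattern outside the 8 families held 9.35% of FPKM. They included Mfge8, Clu, Clpsl2, a colipase-like protein at 3432 FPKM, Apoe, the lipid carrier, at 1397 FPKM, B2m, the light chain of MHC class I, at 1250 FPKM, and Ovch2, a secreted serine protease of the initial segment, at 1058 FPKM. Proteins of the endoplasmic reticulum carry the same pattern, so the share is not one of secreted proteins alone. Genes with a later hydrophobic stretch, as membrane proteins have, held 14.02 ± 0.23%.

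Genes for making and folding proteins were widely detected, though no other tissue was compared. All 80 cytosolic ribosomal protein genes were detected (100%, against 52.4% of all genes) and held 9.91 ± 0.12% of FPKM. Of 33 genes of folding and translocation in the endoplasmic reticulum, 32 were detected (97.0%) and 21 exceeded 100 FPKM. This list held 1.37 ± 0.020% of FPKM. Calr, a calcium-binding lectin chaperone, had 1800 ± 57.2 FPKM, Hsp90b1, the chaperone GRP94, 1070, 1038 and 1076 FPKM and Hspa5, the chaperone BiP, 1029 ± 19.1 FPKM. Nuclear-encoded subunits of oxidative phosphorylation held 2.14 ± 0.011% with 91 of 95 genes detected (95.8%), and proteasome subunits 0.454% with 37 of 39 (94.9%).

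The duct also moves ions, water and nutrients across its wall. Of 365 solute carrier genes, 205 were detected (56.2%, near the 52.4% of all genes), and only Slc38a5, a transporter of glutamine and other neutral amino acids, exceeded 1000 FPKM with 2750, 2526 and 2630 FPKM. Slc7a5 and Slc3a2, the light and heavy chains of an exchanger of large neutral amino acids, had 618 and 332 FPKM, and Slc1a1, a glutamate transporter, had 349 FPKM. Among water channels Aqp9 had 43.8 FPKM and Aqp1 35.1 FPKM, and 3 of 12 were detected (25%). Ano1, a calcium-gated chloride channel, had 47.8 FPKM, and Scnn1a, a subunit of the epithelial sodium channel, 40.3 FPKM. Of the tight junction genes, Cldn2, a claudin that forms cation pores, was highest at 424 FPKM, followed by Cldn3 at 189 FPKM and Cldn10 at 161 FPKM.

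Transcription factors were detected more often than abundant. Of 635 genes in 9 lists, 367 were detected (57.8%, against 52.4% of all genes), 8 exceeded 100 FPKM and none was among the first 100. They held 0.842 ± 0.020% of FPKM. The list of KRAB and other Zfp genes was kept apart from these 9 lists. Of its 407 genes, 320 were detected (78.6%, against 52.4% of all genes), none reached 100 FPKM on average, and it held 0.299% of FPKM. Etv5, an ETS factor induced by FGF signalling, was first with 210, 211 and 210 FPKM, 172-fold below Gpx5 by mean. Hoxb6 had 172, 175 and 180 FPKM. Egr2, an immediate early zinc finger factor, had 159, 170 and 172 FPKM, and Hoxb7 151, 159 and 171 FPKM. Etv5 lay clear of Hoxb6, and Hoxb6 just above Egr2, whereas the ranges of Egr2 and Hoxb7 overlapped. Atf4 with 150 ± 2.06 FPKM and Xbp1 with 112 ± 2.15 FPKM, both effectors of the unfolded protein response, and Srebf1, a regulator of lipid synthesis, with 105 ± 4.21 FPKM were among the 8, as was Hoxd8 with 132 ± 6.45 FPKM. Hoxb8, Elf3, an epithelial ETS factor, and Pax8, which acts in the development of the excurrent ducts, followed at 84.5, 83.1 and 82.4 FPKM with ranges that overlapped.

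Hox genes, which specify position along the body axis, were detected in 26 of 39 cases (66.7%, against 52.4% of all genes). Their level depended on the paralog group. Groups 1 to 10 summed to 794, 798 and 816 FPKM and 26 of their 30 genes were detected, but group 10 was already low, with Hoxd10 at 2.36 FPKM, Hoxa10 at 1.44 FPKM and Hoxc10 listed at 0. None of the 9 genes of groups 11 to 13 was detected: 7 were listed at 0 in every library and no single value exceeded 0.232 FPKM. By cluster, HoxB genes summed to 520 ± 13.8 FPKM and HoxD genes to 234 ± 8.63 FPKM, while HoxC genes summed to 25.5 ± 0.665 FPKM and HoxA genes to 23.99 ± 3.799 FPKM. By FPKM, the level within HoxB peaked at Hoxb6 and was 38.4 FPKM for Hoxb9 on the one side and 12.1 FPKM for Hoxb5 on the other. By normalized counts, Hoxb8 ranked 763 among all genes, above Hoxb6 at 824 and Hoxb7 at 997, so the peak depended on the scale. Hoxd4 had 51.5 FPKM, Hoxd9 35.5 FPKM, Hoxb2 21.1 FPKM, Hoxb3 16.7 FPKM, Hoxc8 14.7 FPKM and Hoxd3 11.9 FPKM. The 14 other detected Hox genes lay between 1.07 FPKM for Hoxa2 and 7.60 FPKM for Hoxb4.

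Of 47 nuclear receptor genes, 29 were detected (61.7%, against 52.4% of all genes). Nr1h2, the oxysterol receptor LXR-beta, had 43.9 FPKM and Nr2f6 39.2 FPKM. Nr4a1, an immediate early orphan receptor, had 26.7 FPKM, Ppard 25.2 FPKM and Rxra, the common dimer partner, 20.2 FPKM. Of the sterol synthesis genes all 19 were detected (100%, against 52.4% of all genes), led by Fdps at 194 FPKM, Nsdhl at 154 FPKM and Msmo1 at 101 FPKM.

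Receptors of the G protein-coupled class were sparse. Olfactory, vomeronasal and taste receptors aside, 93 of 349 were detected (26.6%, against 52.4% of all genes) and 14 had at least 10 FPKM. Adgrg2, an adhesion receptor of the apical membrane in the efferent ducts and proximal epididymis, had 833 ± 21.9 FPKM, 7.21 times the next receptor, and held 53.8% of the FPKM of the whole class. Adgrg1, another adhesion receptor, had 116, 116 and 114 FPKM. Oxtr, the oxytocin receptor, had 45.04, 48.3 and 44.4 FPKM, above Gprc5c at 40.5 FPKM, and the ranges did not overlap. Mrgpra6, Fzd6, a Wnt receptor, Smo, the Hedgehog signal transducer, and Adgrl1 lay between 21.7 and 25.6 FPKM. Of the neurotensin receptors, Ntsr1 had 18.0 ± 1.14 FPKM and Ntsr2 had 20.8, 14.6 and 9.51 FPKM. Relative to its mean, Ntsr2 had the widest spread of the first 10, with the highest value in replicate 1 and the lowest in replicate 3.

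Among receptor kinases and receptors of cytokines and growth factors, 110 of 169 were detected (65.1%, against 52.4% of all genes) and none reached 100 FPKM. Lrp10, a member of the LDL receptor family, had 96.4 ± 4.25 FPKM and Ifngr2, a chain of the interferon-gamma receptor, 91.8 ± 5.67 FPKM, with overlapping ranges. Ros1, a receptor kinase that the mouse initial segment needs to differentiate, had 77.9, 77.0 and 77.4 FPKM. Pdgfra, a receptor typical of stromal cells, had 70.3 ± 1.28 FPKM, Tnfrsf1a, the TNF receptor, 51.8 FPKM, Il10rb 50.1 FPKM, Ifngr1 43.8 FPKM and Ryk, a Wnt-binding receptor, 40.9 FPKM. Il4ra at 36.4 FPKM and Ifnar2 at 34.9 FPKM closed the first 10.

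**Figure D4:**
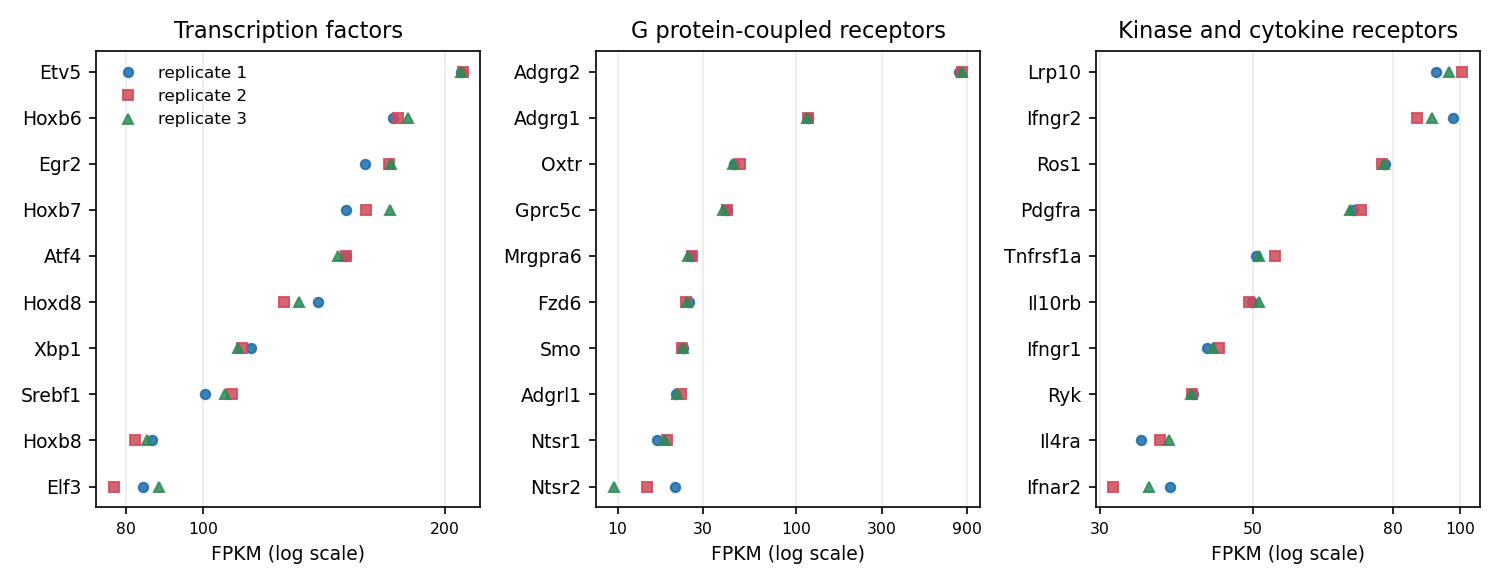
FPKM (horizontal axes, log scale, each with its own range) of the 10 highest transcription factors, G protein-coupled receptors, and receptor kinases and cytokine receptors in wild-type caput, with a point for each of the 3 libraries. KRAB and other Zfp genes and olfactory, vomeronasal and taste receptors were left out. Adgrg2 at 833 FPKM stands alone in the middle panel, and Ntsr2 has the widest spread on the log axis, 9.51 to 20.8 FPKM.

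Markers of the cell types a dissected caput could hold were read next. In RNA of a whole tissue, fewer cells of a type and less RNA per cell cannot be told apart. The 7 initial segment markers, Lcn8, Lcn9, Rnase10, Cst8, Adam28, Ovch2 and Ros1, summed to 34541, 35252 and 36571 FPKM, and the 4 principal cell markers to 4809, 4601 and 4734 FPKM. Spink5 at 211 FPKM and Defb2 at 131 FPKM, listed as markers of corpus and cauda, were also present, while Wfdc3 of the same list had 4.98 FPKM. Of the narrow and clear cell markers, Atp6v0d2, a proton pump subunit, had 43.0 FPKM and Foxi1, their lineage factor, 29.7 FPKM, while Slc26a4 had 0.118 FPKM. The basal cell keratins Krt5 and Krt14 had 46.4 and 38.9 FPKM, with Trp63 at 23.9 FPKM. Smooth muscle of the duct wall was represented by Acta2 at 259 FPKM and Tagln at 114 FPKM, fibroblasts by Dcn at 197 FPKM, endothelium by Pecam1 at 13.1 FPKM and macrophages by Lyz2 at 54.8 FPKM and Csf1r at 14.2 FPKM. None of the 6 T and B cell markers and none of the 4 nerve and Schwann cell markers reached 1 FPKM. The germ cell protamines Prm2 and Prm1 had 27.0 and 23.02 FPKM. Esr1, abundant in efferent ducts, had 12.6 FPKM, while Slc9a3, another marker of efferent ducts, had 0.261 FPKM.

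The libraries were close to each other. The coefficient of variation (CV, the SD as a percentage of the mean) had a median of 5.23% over the detected genes, and 80.1% of them were at 10% or less. Among genes of at least 1000 FPKM the median CV was 3.60%. Across the 12767 detected genes, Pearson's r of log2(FPKM + 1) was 0.991 to 0.993 between pairs of libraries, which share the same genes and are not independent points. The 10 genes of highest CV above 10 FPKM were led by Snord2 and Snord104, and 8 of them were small RNAs read from a few fragments. With at least 100 normalized counts as well, a limit set after the values were seen, 6608 genes remained and 35 of them (0.530%) had a CV above 20%.

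Members of the 8 secreted families were 9 of those 35 genes and 88 of the 6608 (1.33%). Among the 30 most variable genes, 18 were highest in replicate 1 and lowest in replicate 3, an order that 15.04% of all 6608 genes had. The 8 family members among the 30 all had it, whereas 31 of all 88 family members did. Replicate numbers are names and carry no order of their own. Rnase9 had 255, 111 and 65.8 FPKM in replicates 1, 2 and 3, Lcn5 1852, 1067 and 822 FPKM, Defb30 133, 72.8 and 52.4 FPKM, and Spink2 405, 263 and 189 FPKM. AY761185 had 97.4, 32.5 and 19.3 FPKM, and Gm6792, named Epp13 in RefSeq, had 292, 168 and 105 FPKM. Serpina1f, Rnase13, Defb37 and Defb15 had the same order, and so did Ntsr2, Enpp1, an ectonucleotidase, St6gal1, a sialyltransferase, and Bsph1, a binder of sperm. Of the 25 most abundant genes 6 had the order (24%), Defb20, Lcn2, Defb47, Clu and Wfdc10 among them. Of the 85 genes of at least 1000 FPKM 15 had it (17.6%), near the 15.04% of all 6608 genes. Fat cell markers were also highest in replicate 1: the 4 of them summed to 5.50, 0.251 and 0.619 FPKM, with Cfd, the complement factor adipsin, at 4.64, 0.156 and 0.619 FPKM and Adipoq at 0.408, 0.0586 and 0 FPKM. Their part in the other values was not tested.

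**Figure D5:**
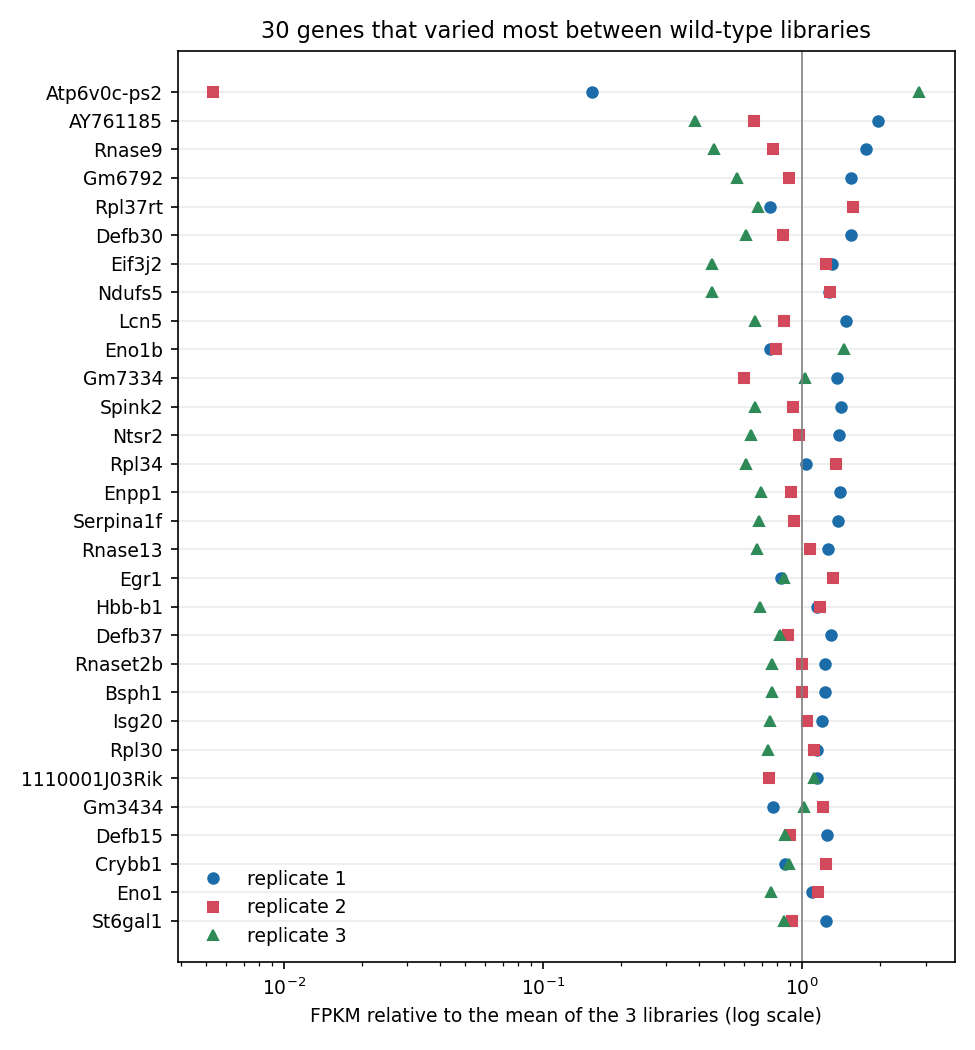
FPKM of each library relative to the mean of the 3 (horizontal axis, log scale) for the 30 genes of highest coefficient of variation among those with at least 10 FPKM and 100 normalized counts, with a point per library. In 18 of the 30, replicate 1 is highest and replicate 3 lowest, and Atp6v0c-ps2 spreads over the widest range.

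Several of the 30 genes belong to pairs of closely similar copies whose fragments were split differently between libraries, in several of them with replicate 3 apart from the others, among them Eif3j2, which is also 1 of the 18 above. BC002163, a retrocopy named Ndufs5-ps in RefSeq, took 1.02%, 1.96% and 65.3% of the normalized counts of Ndufs5 and itself in replicates 1, 2 and 3, whereas their sum was stable at 407, 414 and 412 normalized counts. Eif3j2 took 99.6%, 99.6% and 37.7% of the counts it shares with Eif3j1, with sums of 1150, 1094 and 1043. Atp6v0c-ps2 took 1.11%, 0.037% and 19.8% of the sum with Atp6v0c, a proton pump subunit, and Eno1b took 23.7%, 23.8% and 46.0% of the sum with Eno1, a glycolytic enzyme. Hbb-bs took 0.0039%, 0.0038% and 21.3% of the sum with Hbb-b1, which was 653, 673 and 503. The sums varied by 0.897% to 4.90% (CV) in the first 4 pairs and by 15.3% in the globin pair. Other pairs differed otherwise: Rpl37rt took 1.47%, 3.36% and 1.42% of the sum with Rpl37, with replicate 2 apart, and Rpl34-ps1 took 93.5%, 90.8% and 95.7% of the sum with Rpl34. Some copies held nearly all counts in every library, as Rps27rt did with 99.6% to 99.9% of the sum with Rps27. The level of any gene in such a pair is therefore uncertain, and the cause of the different splits was not tested.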

How the data were processed

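RNA of the caput epididymis was sequenced after an RNeasy extraction and a stranded Illumina mRNA library kit, per the labels' protocols. The submitters' processing notes name TopHat2 2.1.1, Cufflinks 2.2.1 and the mouse build mm10 (GRCm38); the annotation, the strand setting, how reads with several matches were treated and how libraries were normalized are not stated in those notes or labels. The FPKM columns are the authors' normalized values, per the file headers. Normalized counts, a signal that the authors had also scaled, were deposited beside them, per the file headers; they are not raw counts, and no count test was run. Below 300, 98.5% to 98.7% of them lay within 0.05 steps of a multiple of the library's smallest step; fragments per library were read from that step, unchecked against the reads. Rpl26, a ribosomal protein gene, had 6.82, 0 and 3.71 FPKM, so a listed 0 may be a failed estimate. The 3 Adgrg2-KO libraries were not used.

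Levels are means ± SD over the 3 libraries. A single group is described, so no test was made and no p-value is given; neighbours in rank were compared by the ranges of their libraries. Shares are per library, as percentages of its summed FPKM or normalized counts. The members, the 54 gene lists and the rules were chosen with earlier results of these data known, and list symbols were corrected once the table was seen. NCBI gene IDs matched RefSeq for 99.6% of genes. The plan for naming genes took the 25 of highest FPKM, the 10 of highest normalized count, the 5 markers and the leading 4 or 10 members of each list. It also took every detected Hox gene, every member of short cell type lists and the 10 of highest CV above 10 FPKM. Only some of these are named, chosen after their values were seen. Further variable genes, copies, transporters and secreted genes were also named after their values were seen. RefSeq proteins were planned for the secretion pattern; coding sequences of GENCODE (GRCm38) were translated instead, with Kyte-Doolittle means of at least 2.0 over 10 residues within the first 35, and no mean of 1.8 over 19 residues from residue 41 on. Normalized counts per coding base, added after seeing the data, are normalized counts divided by the length of that coding sequence, over genes that have one. Clusters end at gaps of 1 Mb and have at least 3 members. Python 3.11.15 with pandas 2.3.3, numpy 2.4.6, Biopython 1.88 and matplotlib 3.10.9 was used, and the calculations were tested on simulated data.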

Additional observations from a re-analysis of the deposited data

How the results depend on the processing

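The choice of FPKM or normalized counts decided how concentrated the transcriptome appeared. By normalized counts the 10 and 100 most abundant genes held 12.2% and 28.0%, the 8 secreted families 12.7% and the genes with the secretion pattern 23.2%, and 4 of the 10 highest transcription factors and 5 of the 10 highest kinase and cytokine receptors were the same as by FPKM. The pattern's limits moved its share to 40.7% and 36.0% of FPKM at N-terminal means of 1.7 and 2.3, and to 37.2% and 38.5% at later means of 1.6 and 2.0. By normalized counts per coding base, added after seeing the data, the 10 and 100 most abundant genes held 18.03% and 38.6%, the families 24.01% and the pattern 32.5%. A threshold of 10 FPKM left 6660 genes detected. Leaving out each library in turn gave 20.6% to 20.9% for the 10 most abundant genes, 29.4% to 29.9% for the families and 37.8% to 38.2% for the pattern. Nearly every single list depended on the scale as well: 35 list shares moved beyond the spread by normalized counts and 2 did not, and 33 moved by normalized counts per coding base and 4 did not. Leaving out a library moved none of the 62 values for lists and genes. With 3 libraries that outcome was fixed, since dropping 1 cannot shift a mean by the full SD. Leaving out genes under 1 FPKM moved 3 list shares. Ranking the variable genes otherwise, chosen after seeing the data, left 13 to 18 of 30 in the order given. No paired analysis was possible because a single group is described and no test was made. The alternative without mitochondrially encoded genes gave no value, since none is in the table analysed. At this depth, counting error limits short and rare transcripts most, and 3 libraries limit the SD of every value.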

Other observations

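Long non-coding RNAs were a minor part of the wild-type caput: 378 of 2071 were detected (18.3%, against 52.4% of all genes) and they held 0.432 ± 0.0038% of the summed FPKM (SD, n = 3). The highest were 1500011B03Rik with 144 ± 7.60 FPKM and 2410006H16Rik with 105 ± 5.16 FPKM. Neat1, the scaffold of nuclear paraspeckles, had 86.9, 90.4 and 93.5 FPKM, and 2900097C17Rik, named Norad in RefSeq, had 70.6, 67.4 and 69.1 FPKM. Hotairm1, transcribed from the HoxA cluster, had 43.3 ± 6.18 FPKM from 50.8 normalized counts.

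Of 1507 olfactory, vomeronasal and taste receptor genes, 6 were detected (0.398%, against 52.4% of all genes). Olfr1338 was highest with 5.82, 7.92 and 6.49 FPKM, and Tas1r1, a subunit of the umami taste receptor, had 3.62, 3.27 and 3.68 FPKM.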
